A study of Mus musculus with 1 sample.

Results

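The MAP kinase cascade was taken as the genes whose platform symbol is Mapk, Map2k, Map3k, Map4k or Mapkapk followed by a number. This rule found 40 genes read by 44 probes, out of 19321 named genes. They were measured in parental RAW264.7 cells, a mouse macrophage-like line transformed with Abelson leukaemia virus, grown untreated in RPMI-1640 with 10% fetal calf serum. Their RNA was amplified, coupled to Cy5 and hybridised to 1 one-colour Toray array. The study set parental cells against lines made with the mutagen ENU that had lost the uptake of peroxiredoxin, to find genes this uptake needs. Arrays of mutant lines were not analysed here. There is thus 1 group, parental, with 1 array and no replicate, and the values below describe which members gave signal in that culture. No p-value is given, and the number of arrays limits the precision.

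MAP kinases act as the last step of a relay in which each kinase phosphorylates the next. MAP4K and small GTPases switch on MAP3K enzymes, these phosphorylate MAP2K enzymes, and each MAP2K activates its own MAP kinases by dual phosphorylation of a threonine and a tyrosine. In macrophages the ERK, JNK and p38 arms carry signals from Toll-like receptors and growth factor receptors to cytokine transcription and mRNA stability, and the MAPKAPK enzymes act below p38. The relay is run by phosphorylation, which transcript levels do not measure.

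Signal is the median Cy5 intensity of a spot in arbitrary units, with no local background subtracted. The blank limit, 22.98, is the mean of 2464 trimmed blank spots, 20.6, plus 2 of their SD of 1.18. Of all 2736 blanks before trimming, 195 were themselves over this limit. A stricter bound, called the receptor limit, was taken from 1224 probes of smell and taste receptor genes, most of which a macrophage has no known use for. It is their 95th percentile, 55.8. Of the 1213 genes behind these probes, 37.2% were over the blank limit. The highest limit was set at 10 times the blank limit, 229.8. A gene takes its higher probe. Repeats of the same positive control at 24 spots had coefficients of variation of 4.98% and 5.37%. Their means were 12934 and 29508, far above every member, so this spread does not cover low readings. The blanks and the negative controls were also repeated. Probes differ in response, so members are set against the limits and not ranked against each other. The label held against its markers, with all 8 macrophage genes listed over the receptor limit, among them Spi1 at 858 and Csf1r at 642. Of 19 measured markers of lymphocytes, fibroblasts, neurons and skeletal muscle, 11 were over the blank limit and 1 was over the receptor limit, Myod1 at 61.0.

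Of 40 member genes, 35 were over the blank limit, or 87.5%, against 72.8% of all named genes. Without the probes under 2 times their own local background, 20 members remained over it, or 50%, against 35.0% of all named genes. Over the receptor limit were 22 members, or 55.0%, against 42.8% of all named genes. With the 99th percentile of the receptor probes as that limit, 11 members passed, or 27.5%, against 27.6% of all named genes, so the higher share of the members was not seen there. Over 10 times the blank limit were 6 members, or 15.0%, against 20.9% of all named genes. With the local background subtracted that limit fell to 58.7, and this order turned round. There 14 members passed, or 35.0%, against 31.7% of all named genes. The 6 without subtraction were Map2k1, Map2k2, Map2k3, Mapk9, Mapkapk2 and Mapkapk5. The median member read 72.6, against 40.1 for all named genes. The 5 members not over the blank limit were Mapk10, Map3k2, Map3k9, Map3k19 and Map3k21.

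**Figure D1:**
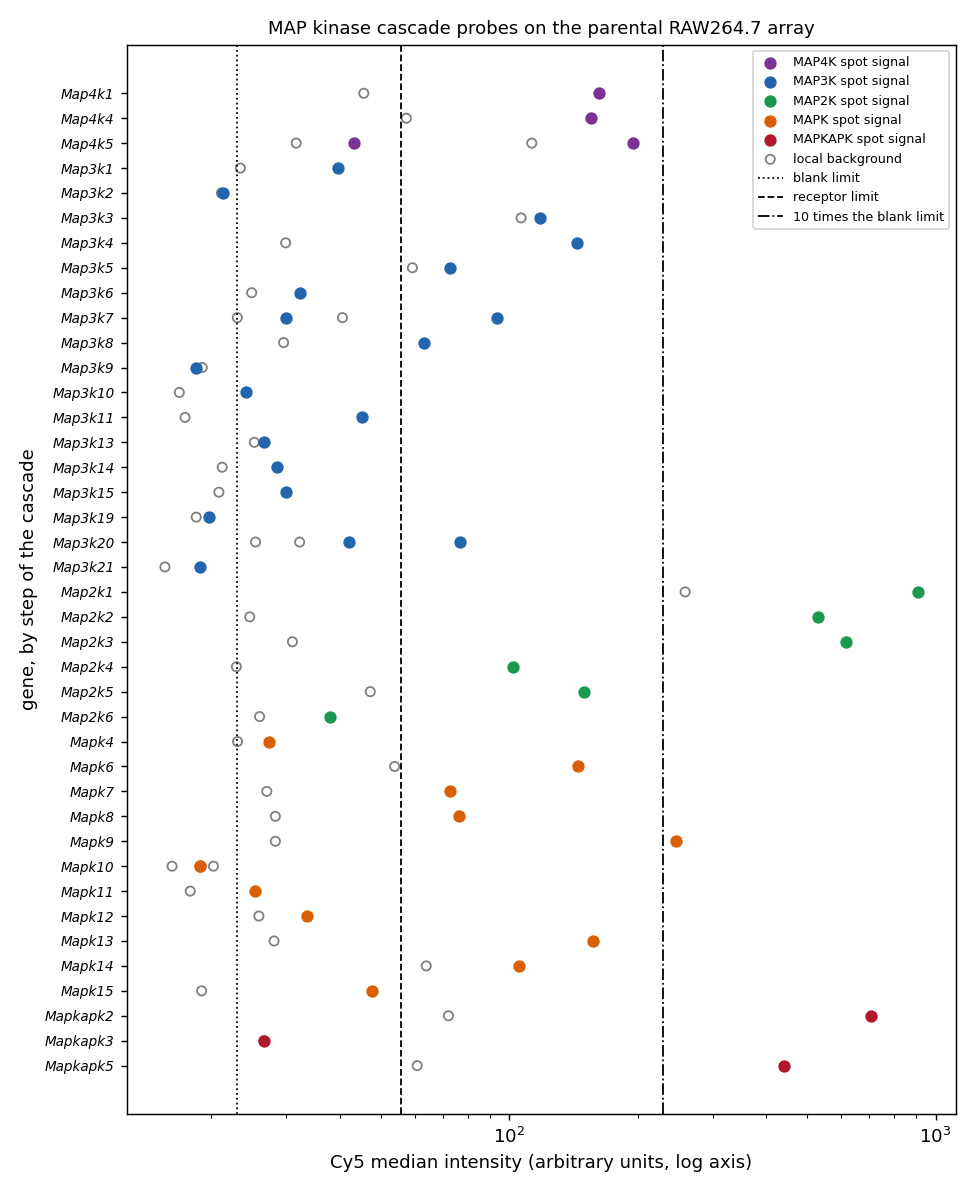
Spot signal of each of the 44 probes (filled points, coloured by step) and the local background around the same spot (open grey points), on a log axis of Cy5 intensity in arbitrary units, with the 3 limits as vertical lines. The 3 Map2k1, Map2k2 and Map2k3 points lie right of the line at 10 times the blank limit, while no MAP3K or MAP4K point does.

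The promoter windows of 3 members are shown as examples for a pattern taken up after the values. In it, the 6 members with a CpG ratio under 0.6 in the window were under the receptor limit. Of all named genes with such a ratio, 20.7% were over that limit. With only 6 members, the difference is not read as a trait of the cascade. Map2k1 and Mapk10 go with the pattern, and Map3k9 is a member with a high ratio and little signal. Each runs from 250 bases before to 50 after a RefSeq gene start on GRCm38.p6 and is printed 5′ to 3′ on the strand of the gene, with each CG pair in capitals. The MAP2K gene Map2k1 (chr9:64253556-64253855, minus strand) had 31 pairs and its probe read 909. The JNK3 gene Mapk10 (chr5:103211285-103211584, minus strand), which is used mainly in the nervous system, had 8 pairs and read 18.8, under the blank limit. The mixed lineage kinase gene Map3k9 (chr12:81781121-81781420, minus strand) had 32 pairs and read 18.4, also under that limit.
Map2k1: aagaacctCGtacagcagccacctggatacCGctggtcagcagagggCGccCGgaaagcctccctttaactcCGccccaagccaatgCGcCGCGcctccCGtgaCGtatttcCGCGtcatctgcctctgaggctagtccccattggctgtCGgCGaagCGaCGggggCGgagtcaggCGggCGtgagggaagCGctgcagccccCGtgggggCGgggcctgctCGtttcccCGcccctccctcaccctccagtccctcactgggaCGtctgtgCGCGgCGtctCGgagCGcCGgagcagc
Mapk10: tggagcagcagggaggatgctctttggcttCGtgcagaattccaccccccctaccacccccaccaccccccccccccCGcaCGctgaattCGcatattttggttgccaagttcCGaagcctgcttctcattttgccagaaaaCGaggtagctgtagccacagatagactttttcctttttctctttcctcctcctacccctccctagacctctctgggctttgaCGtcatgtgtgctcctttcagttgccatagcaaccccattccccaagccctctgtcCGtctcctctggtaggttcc
Map3k9: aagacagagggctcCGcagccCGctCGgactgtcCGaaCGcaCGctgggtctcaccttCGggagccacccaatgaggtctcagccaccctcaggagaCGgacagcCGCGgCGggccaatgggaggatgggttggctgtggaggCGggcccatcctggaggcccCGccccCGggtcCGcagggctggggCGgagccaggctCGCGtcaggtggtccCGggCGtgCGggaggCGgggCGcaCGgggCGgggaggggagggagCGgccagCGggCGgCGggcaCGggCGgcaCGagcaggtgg

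At the MAP4K step, the entry kinases related to yeast STE20, 3 genes with a Map4k symbol were measured. All 3 were over the receptor limit and none was over 10 times the blank limit. Of all named genes, 42.8% and 20.9% were over these limits. Map4k1 (HPK1), a kinase of blood cells, read 162, and Map4k4 (HGK) read 156. Map4k5 was read by 2 probes, at 195.6 and 43.2, and the lower of them lay between the blank and receptor limits. Map4k2 and Map4k3 had no named probe and were not analysed here. Mink1, whose older symbol is Map4k6, is listed under its present name, read 26.9 and lay between the limits.

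The MAP3K step, where most stimuli enter, had 17 measured genes. Of these, 13, or 76.5%, were over the blank limit, against 72.8% of all named genes. Over the receptor limit were 6, or 35.3%, against 42.8% of all named genes. Over 10 times the blank limit were 0, against 20.9% of all named genes. Their median was 32.3. The 6 over the receptor limit were Map3k3, Map3k4, Map3k5, Map3k7, Map3k8 and Map3k20.

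Among the kinases that innate receptors use, Map3k7 (TAK1), which couples Toll-like receptor and TNF receptor adaptors to JNK, p38 and NF-kB, read 93.9 on 1 probe and 29.9 on the other. The platform ties the lower probe to a predicted non-coding transcript record of the gene. Map3k8 (TPL2), the MAP3K that activates MEK1 and MEK2 after lipopolysaccharide, read 63.1, or 1.13 times the receptor limit, and 49 of 1224 receptor probes read as high. Map3k14 (NIK), the kinase of the non-canonical NF-kB pathway, read 28.5 and lay between the limits. Of this trio, Map3k7 on its higher probe and Map3k8 were over the receptor limit.

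The MEKK group was uneven. Map3k4 (MEKK4) read 144.6 over a local background of 29.9. Map3k3 (MEKK3) read 118 over a local background of 107, and after subtraction of the local background it was no longer over the receptor limit of that setting. Map3k1 (MEKK1) lay between the limits at 39.8. Map3k2 (MEKK2), a close relative of MEKK3, read 21.3, and 854 of 2736 blanks read as high. Map3k19 stayed under the blank limit with a reading of 19.8.

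The ASK group answers oxidative stress, and in its absence reduced thioredoxin holds ASK1 in check. Map3k5 (ASK1) read 72.7 over a local background of 59.3 and, like Map3k3, was under the receptor limit after subtraction. Map3k6 (ASK2) at 32.3 and Map3k15 (ASK3) at 30.0 lay between the limits. No ASK gene was over 10 times the blank limit.

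Mixed lineage kinases mostly feed JNK. Of 6 measured, 4, or 66.7%, were over the blank limit, against 72.8% of all named genes. Over the receptor limit was 1, or 16.7%, against 42.8% of all named genes. That gene was Map3k20 (ZAK), a sensor of stalled ribosomes, whose probes read 76.7 and 42.0. Map3k11 (MLK3) read 45.0, Map3k13 (LZK) 26.7 and Map3k10 (MLK2) 24.1, all between the limits. Map3k10 was 1.05 times the blank limit, within the range of the blanks, whose highest read 27.0, and 64 of the blanks read as high. Map3k9 (MLK1) at 18.4 and Map3k21 (MLK4) at 18.8 read under the mean of the blanks. Map3k12 had no named probe and was not analysed here.

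At the MAP2K step all 6 measured genes were over the blank limit, against 72.8% of all named genes. Over the receptor limit were 5, or 83.3%, against 42.8% of all named genes. Over 10 times the blank limit were 3, or 50%, against 20.9% of all named genes. The step's median was 340.0. Map2k1 (MEK1) and Map2k2 (MEK2), the MAP2K enzymes of the ERK arm, read 909 and 530, and 0 and 1 of the 1224 receptor probes read as high. The p38 activators differed in their side of the limits. Map2k3 (MKK3) read 617, while Map2k6 (MKK6) read 38.04 and lay between the limits. Map2k4 (MKK4), which activates JNK and also p38, read 102, and Map2k5 (MEK5), the activator of ERK5, read 150. Map2k7, the other JNK activator, had no named probe and was not analysed here.

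**Figure D2:**
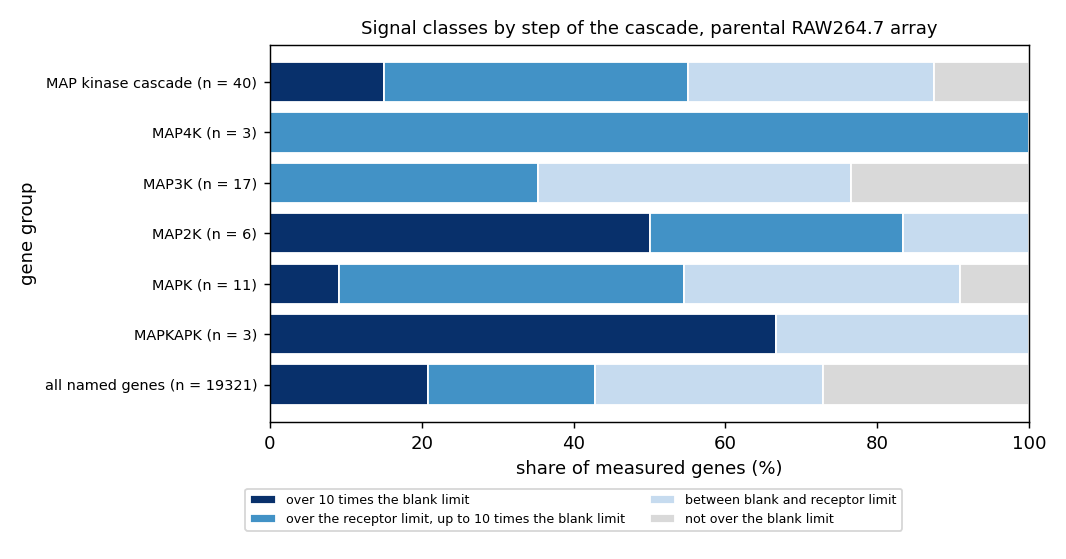
Share of measured genes (%) in 4 signal classes for the whole cascade, for each step and for all named genes, with the number of genes beside each bar. The darkest class, over 10 times the blank limit, holds 3 of 6 MAP2K genes and 0 of 17 MAP3K genes.

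Of 11 measured MAP kinases, 10, or 90.9%, were over the blank limit, against 72.8% of all named genes. Over the receptor limit were 6, or 54.5%, against 42.8% of all named genes. Over 10 times the blank limit was 1, or 9.09%, against 20.9% of all named genes. Their median was 72.6. The kinases directly below MEK1 and MEK2 were not analysed here.

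In the JNK group, Mapk9 (JNK2) read 246.4, or 10.7 times the blank limit, and Mapk8 (JNK1) read 76.4, or 3.33 times. Both are the broadly used JNK genes. Mapk10 (JNK3) read 18.8 on both of its probes, of which 1 carries a gene identifier that is not in the mouse gene table. Of the 2736 blanks, 2496 and 2485 read as high as these probes. Mapk9 passed the highest limit narrowly and was under it when the 99th percentile of the blanks replaced the mean and SD.

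In the p38 group, all 4 genes were over the blank limit and 2, or 50%, were over the receptor limit, against 42.8% of all named genes. Mapk14 (p38 alpha), the main form in macrophage cytokine responses, read 105 over a local background of 63.9. Mapk13 (p38 delta) read 157 over a local background of 28.1. Mapk12 (p38 gamma), best known from skeletal muscle, and Mapk11 (p38 beta) lay between the limits at 33.6 and 25.3, and 9 blanks read as high as Mapk11.

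ERK5 and the atypical kinases completed the step. Mapk7 (ERK5), the only member fed by MEK5, read 72.6 and was over the receptor limit. Mapk6 (ERK3) read 145, while its relative Mapk4 (ERK4) read 27.3 and Mapk15 (ERK7) read 47.8, both between the limits. After subtraction of the local background Mapk4 was not over the blank limit of that setting, and Mapk15 was over its receptor limit.

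The MAPKAPK enzymes, substrates of p38, stood on both sides. Mapkapk2 (MK2), which controls the stability of Tnf mRNA, read 704 and none of the 1224 receptor probes read as high. Mapkapk5 (PRAK) read 442. Mapkapk3 (MK3), a close relative of MK2, read 26.6 over a local background of 26.6, and after subtraction it was under the blank limit of that setting.

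Followed along each arm, the values ran as follows. In the ERK5 arm Map3k3, Map2k5 and Mapk7 were over the receptor limit and Map3k2 was not over the blank limit. Map3k3 read under 2 times its local background and was not over the receptor limit after subtraction. In the p38 arm Map2k3, Map2k4, Mapk14, Mapk13, Mapkapk2 and Mapkapk5 were over the receptor limit, with Mapk14 under 2 times its local background. Map2k6, Mapk11, Mapk12 and Mapkapk3 of that arm were between the limits. In the JNK arm Map2k4, Mapk8 and Mapk9 were over the receptor limit and Mapk10 was not over the blank limit. Of the measured mixed lineage kinases, which mostly feed JNK, only Map3k20 was over the receptor limit, on its higher probe. Map3k9 and Map3k21 were not over the blank limit. The other MAP3K genes are given by group above and not by arm, apart from those named here. In the ERK arm Map3k8, Map2k1 and Map2k2 were over the receptor limit.

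Probes of the same gene did not always fall on the same side. Of 4 members with 2 probes, Map4k5, Map3k7 and Map3k20 had 1 probe over the receptor limit and 1 between the limits, with ratios of 4.53, 3.14 and 1.83. The Mapk10 probes gave the same reading, with a ratio of 1.00. Over the whole array, 47.2% of the 1283 genes with several probes had a ratio of highest to lowest over 2. With the lower probe of each gene, 19 members were over the receptor limit.

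The local background around the spots was not flat and moved with the signal. Across 23474 gene spots it had a Spearman's rho of 0.88 with the signal of its own spot and 0.14 with the median signal of the adjoining spots. These spots share 1 hybridisation and 1 scan. Of gene spots over the receptor limit, 25.3% read under 2 times their local background, from 1.83% to 64.3% across the 24 blocks of the array. Among the members, this held for 4 of the 22 probes over the receptor limit, those of Map3k3 and Mapk14 in block 1, Map3k5 in block 4 and the higher Map4k5 probe in block 12. The share was 62.8% in block 1, 38.4% in block 4 and 38.4% in block 12. Its part in the readings of these 4 genes was not tested.

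Promoter windows were matched for 33 members. The CpG ratio is the number of CG pairs over the number expected from the C and G content, and each gene takes its window with the highest ratio. Of 27 members with a ratio of 0.6 or more, 26 were over the blank limit and 20, or 74.1%, over the receptor limit, against 62.0% of 8431 named genes with such a window. Of 6 members with a ratio under 0.6, 4 were over the blank limit and 0 over the receptor limit, against 20.7% of 6728 named genes of that class. These 6 were Map3k6, Map3k13, Map3k21, Mapk10, Mapk12 and Mapkapk3. Map3k21 lay just under the bound at 0.59 and Map2k4 just over it at 0.62. Map3k9 was the member of the higher class that was not over the blank limit. The values are a description of genes on 1 array, and the bound of 0.6 was chosen after the signals had been seen.

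**Figure D3:**
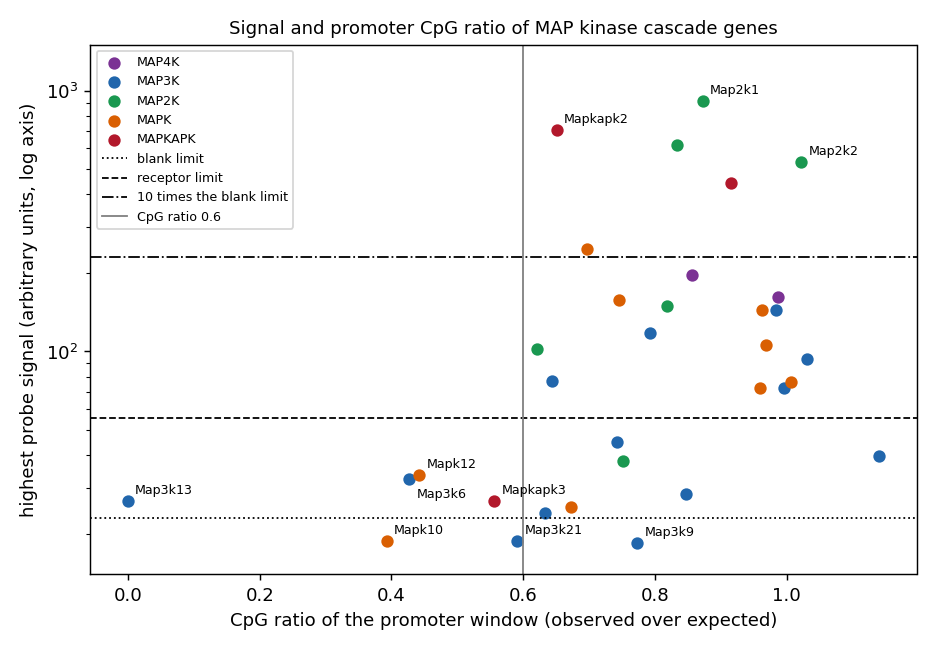
Highest probe signal (log axis, arbitrary units) against the CpG ratio of the promoter window for 33 members, coloured by step, with the limits as horizontal lines and the ratio of 0.6 as a vertical line. All 6 points left of the vertical line lie under the receptor limit, and 20 of the 27 points right of it lie over that limit. Of all named genes in these classes, 20.7% and 62.0% were over it.

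Motifs were searched on both strands of the 44 windows of these members. The Sp factor box GGGCGG, which itself contains a CG pair, was in 24 of them, or 54.5%, against 35.7% of all 32851 windows. The core GAGGAA bound by PU.1 was in 7, or 15.9%, against 28.3% of all windows. The AP-1 site TGANTCA was in 2, or 4.55%, against 7.81%, and the TATA box TATAAA was in 2, or 4.55%, against 13.6%. The windows with the AP-1 site belong to Map2k6 and Map3k10, and those with the TATA box to Map2k6 and Mapk10. Matches of different motifs can share bases. Shares are per window, and some windows of the same gene overlap, as those of Mapk7 do. A ratio of 0.6 or more was held by 27 of 33 members, against 8431 of 15159 named genes. The motif shares were not split by this ratio.

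Around the cascade, 122 genes were listed in 9 groups, of which 111 were measured. Of these, 96, or 86.5%, were over the blank limit, against 72.8% of all named genes. Over the receptor limit were 69, or 62.2%, against 42.8% of all named genes. Over 10 times the blank limit were 30, or 27.0%, against 20.9% of all named genes, and the median was 102. Of 18 genes of Ras, Raf and their activators, 15, or 83.3%, were over the blank limit and 11, or 61.1%, over the receptor limit. Nras read 498, Rap1b read 2160 and the Raf kinase gene Araf read 104, while Braf lay between the limits at 48.8. Hras had no named probe.

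Scaffolds and partners, which hold kinases of a module together, had 18 of 19 genes, or 94.7%, over the blank limit. Over the receptor limit were 12 of them, or 63.2%, against 42.8% of all named genes. Lamtor3 (MP1), the scaffold of MEK1 on late endosomes, read 1048. Tab2 and Tab3, partners of TAK1 that bind ubiquitin chains, read 334 and 132. Tab1 read 57.0 over a local background of 44.5. Tnip2 (ABIN-2), which binds TPL2, read 131. The JNK scaffolds Mapk8ip1 and Mapk8ip3 lay between the limits at 29.3 and 33.6, and Mapk8ip2 read 19.0, under the blank limit. The adaptors that lead from innate receptors to TAK1 had 8 of 8 measured genes over the blank limit and 6, or 75%, over the receptor limit. Among them were Irak1 at 234, Ube2v1 at 431 and Traf6 at 58.8, just over the receptor limit. The local background of Traf6 was 45.8.

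Brakes and outputs had genes on both sides of the receptor limit. Of 13 brakes of Ras and Raf, 8, or 61.5%, were over the blank limit, against 72.8% of all named genes. Over the receptor limit were 5, or 38.5%, against 42.8% of all named genes. Pebp1, an inhibitor of Raf kinases, read 3246 and the Ras GTPase activator Rasa1 read 531. Spred1 was over the receptor limit on both of its probes, at 226 over a local background of 89.0 and at 160 over one of 125. Spry1, Spry2, Spry4 and Spred2 read from 20.6 to 21.3 and Nf1 read 21.3, not over the blank limit. Of 10 MAP kinase phosphatases, 9, or 90%, were over the blank limit and 5, or 50%, over the receptor limit. The ERK phosphatase Dusp6 read 293, Dusp1 read 118 over a local background of 74.6 and Dusp5 read 20.2, not over the blank limit. Of 10 immediate early genes, 9, or 90%, were over the blank limit and 8, or 80%, over the receptor limit. Among these 8 were Egr1 at 412 over a local background of 210, Fos at 309 over one of 229, and Junb at 334. Egr3 was under the blank limit at 21.96. All 14 target factors were over the blank limit and 10, or 71.4%, over the receptor limit, including Mef2c, a substrate of p38 and ERK5, at 652. The downstream kinases had 5 of 5 measured genes over the blank limit and 4, or 80%, over the receptor limit. The ribosomal S6 kinase gene Rps6ka3 read 177. Of 14 relatives of STE20, 10, or 71.4%, were over the blank limit and 8, or 57.1%, over the receptor limit. Pak2 read 540 over a local background of 286, and Tnik, a relative of Map4k4, read 22.4, not over the blank limit. These lists were not counted again with the local background subtracted or under the rule on 2 times it.

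**Figure D4:**
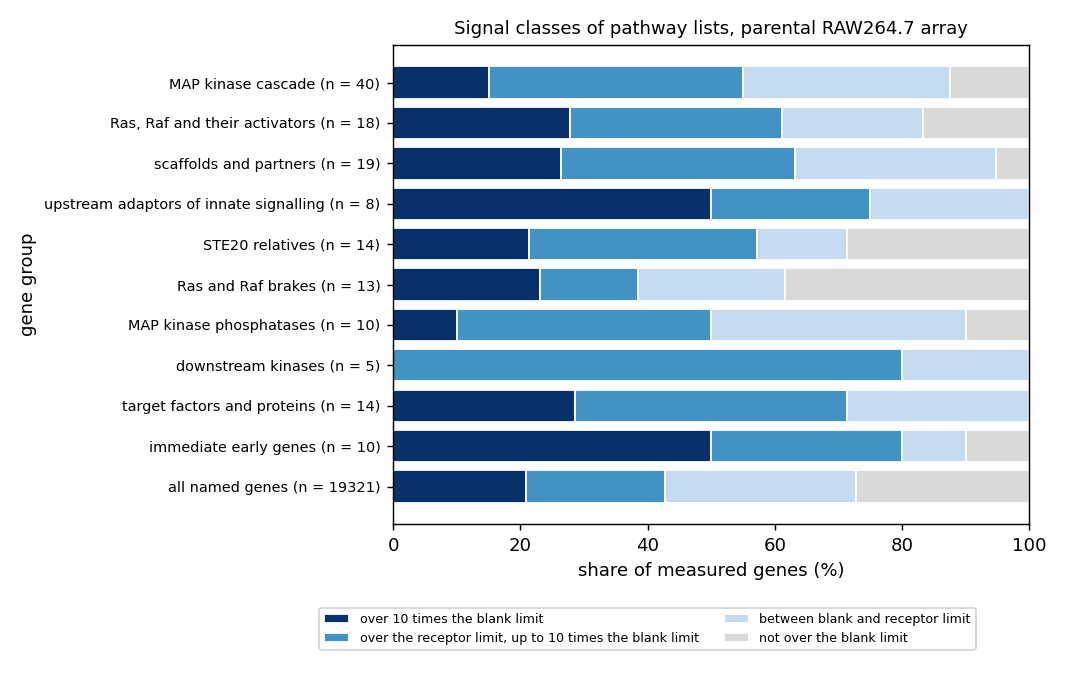
Share of measured genes (%) in 4 signal classes for the cascade, for 9 lists of the surrounding pathway and for all named genes. The list of Ras and Raf brakes has 5 of 13 genes in the class not over the blank limit, and the innate adaptors, downstream kinases and target factors have none.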

How the data were processed

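Per the labels' protocols, total RNA of parental cells was column-purified, amplified to amino allyl RNA and coupled to Cy5. The deposited scanner output gives, per the file headers, the spot and local background median intensity in the Cy5 channel from a scan at 3 gains, with nothing subtracted; how the gains were joined is not stated there. Of 27456 spots, 0 were flagged as bad, and 23473 gene probes were read. A second deposited file holds the authors' processed intensity per probe. Set against the scanner values, it is the spot median minus the mean of the blanks times 0.486 (SD 0.000364 over 2987 probes), its median is 25, and its 6784 empty cells are the probes at 22.97 or lower. So its scale is linear, and the reason for that factor is unknown.

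Symbols are those of the platform annotation for the members; for other genes they were updated by gene identifier to a RefSeq gene table of GRCm38.p6, which 20556 of 20690 named probes matched. The other 2783 probes had no symbol. The members, limits and pathway lists were chosen with earlier results of these data known. Any member and any listed gene could be named. The calculations used Python 3.11.15, pandas 2.3.3 and numpy 2.4.6, and limma 3.58.1 for normexp with an offset of 50. The code for the limit and the calls was run on simulated noise with added signals far above the limit. That run checks the code and does not test calls near the limits. With 1 array there is no test between samples.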

Additional observations from a re-analysis of the deposited data

How the results depend on the processing

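The 3 counts of members were computed again under other settings. Over the blank limit the count was 32 to 36 in 11 of 12 settings, against 35 as reported. It was 20, or 50%, when probes under 2 times their own local background were not called, against 35.0% of all named genes. Over the receptor limit it was 18 to 22 in 6 of 7 settings, against 22 as reported. It was 11, or 27.5%, with the 99th percentile of the receptor probes, 146, against 27.6% of all named genes. Over 10 times the blank limit it was 5 or 6 in 9 of 11 settings, 2, or 5%, with normexp, which adds an offset before the limit is multiplied, against 7.69% of all named genes, and 14, or 35.0%, with the local background subtracted, which lowers that limit to 58.7, against 31.7% of all named genes. The last 2 settings changed the same members at the other limits, so there they do not count as separate checks. Map3k13, Mapk4 and Mapkapk3 were lost at the blank limit, and at the receptor limit Map3k3 and Map3k5 were lost while Map3k11 and Mapk15 were gained. With 3 SD, Map3k10 was lost at the blank limit. The limit from the negative controls added Map3k2. The authors' table gave 35 and 22 members, and 10 times the blank limit has no counterpart in it. It rescales the same spot medians and is empty up to 22.97, next to the blank limit of 22.98. Its counts were thus bound to repeat those reported and are no separate check. The 99th percentile of the receptor probes and the rule on 2 times the local background were chosen after seeing the data. No paired analysis was possible because there is 1 array. Between the blank and receptor limits lay 13 of 40 members and 5808 of 19321 named genes. The call of these genes depends on which limit is used.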
